A study of Homo sapiens with 6 samples.

Results

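Homologous recombination and Fanconi repair genes were followed in LoVo, an established line of human colorectal adenocarcinoma cells, with and without the tyrosine kinase inhibitor DCC-2036 (rebastinib). The genes were taken by symbol from a list of 45 names, and 44 genes had a row among the 19223 gene symbols of the RNA-seq table. The name without a row, MRE11A, is an older symbol of MRE11, which had one. Where a symbol had several RefSeq transcripts, the one kept had the highest mean signal across all 6 libraries. The 44 genes had 111 of the 45006 transcripts in the table.

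Double-strand breaks are first trimmed to single strands by end resection, and with the help of BRCA2 and its partners these strands then search for an intact copy and pair with it. Helicases and nucleases resolve the joined molecules. The Fanconi core complex places ubiquitin on FANCD2 and FANCI at crosslinks between DNA strands, and the kinases ATM and ATR signal the damage to the cell cycle. Many of these genes are expressed mainly in dividing cells.

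Control cultures received vehicle without DCC-2036, and treated cultures received 2.5 μM DCC-2036. The labels give 48 h for both groups, while a legend in the study gives a shorter time. Each group had 3 libraries of total RNA, numbered 1 to 3, and nothing in the labels says that they came from separate cultures, so p-values measure the spread between these samples, which may be technical. LoVo is a single line, and the results hold for it alone. The deposited values are signals per transcript, brought to a common depth by the authors and not divided by length. They are not read counts, and the depth behind them is unknown. Their sums over the table were 38997229, 39956227 and 40587145 in Control and 43279603, 45957597 and 48023306 with DCC-2036. Fewer cells that express a gene and less RNA per cell cannot be told apart in such bulk samples.

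The epithelial label held for the general markers and less for the intestinal ones. EPCAM had signals of 4651, 4558 and 4524 in Control and 5472, 5341 and 5961 with DCC-2036, and KRT8 was the most abundant of the 10 epithelial markers. CDX2 lay between 213.1 and 364.8 in the 6 libraries. CDX1 was listed at 0 in all 6, VIL1 was at most 4.12 and LGALS4 at most 7.23. The epithelial list as a whole summed to between 104483 and 114999.5 in the Control libraries and between 148344 and 188449.6 with DCC-2036, and of its 7 tested genes 2 rose and 1, KRT20, fell. Of 7 leukocyte markers, PTPRC, CD3D and MS4A1 were at 0 in every library, and the list summed to at most 30.9, with LYZ as its most abundant gene. The 9 stromal and endothelial markers summed to between 384.5 and 454.1 in Control and between 467.3 and 572.9 with DCC-2036, of which COL1A1 made up most. Whether these markers have a part in the results on repair genes was not tested.

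A signal of 10 or more in 3 or more libraries was reached by 12725 genes, all 44 repair genes among them. These were tested as log2(signal + 1) with limma, and p-values were adjusted over all 12725 by the method of Benjamini and Hochberg (BH). A gene was called at an adjusted p-value below 0.01. Of the 44 genes, 28 fell and 2 rose with DCC-2036, while 14 did not pass. Over all genes tested, 22.7% fell and 19.2% rose. The median log2 fold change was -0.93 over the 44 genes and -0.09 over all genes tested. With libraries scaled to equal totals these medians were -1.13 and -0.29, so small differences depend on the scaling. A fall of at least 2-fold was called in 22 of the 44 genes, against 15.2% of all genes tested. A rise of at least 2-fold was called in 1 of the 44, against 7.42% of all genes tested. In 36 of the 44 genes the 3 DCC-2036 values lay below the 3 Control values and in 4 they lay above, against 38.1% and 32.9% of all genes tested. The summed signal of the 44 genes was 36797, 36738 and 35011 in Control and 22500.3, 20682 and 20079 with DCC-2036. Without Control replicate 1 or 2 the number of genes that fell was 18, against 19 without Control replicate 3 or DCC-2036 replicate 2, and 1 gene in place of 2 rose without each of these 4 libraries. Over all genes tested, 2887 fell with all libraries and 1502 to 1650 without each of these 4. The smallest p-value of an exact permutation test on 3 and 3 libraries is 0.1, so none is given for single genes.

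**Figure D1:**
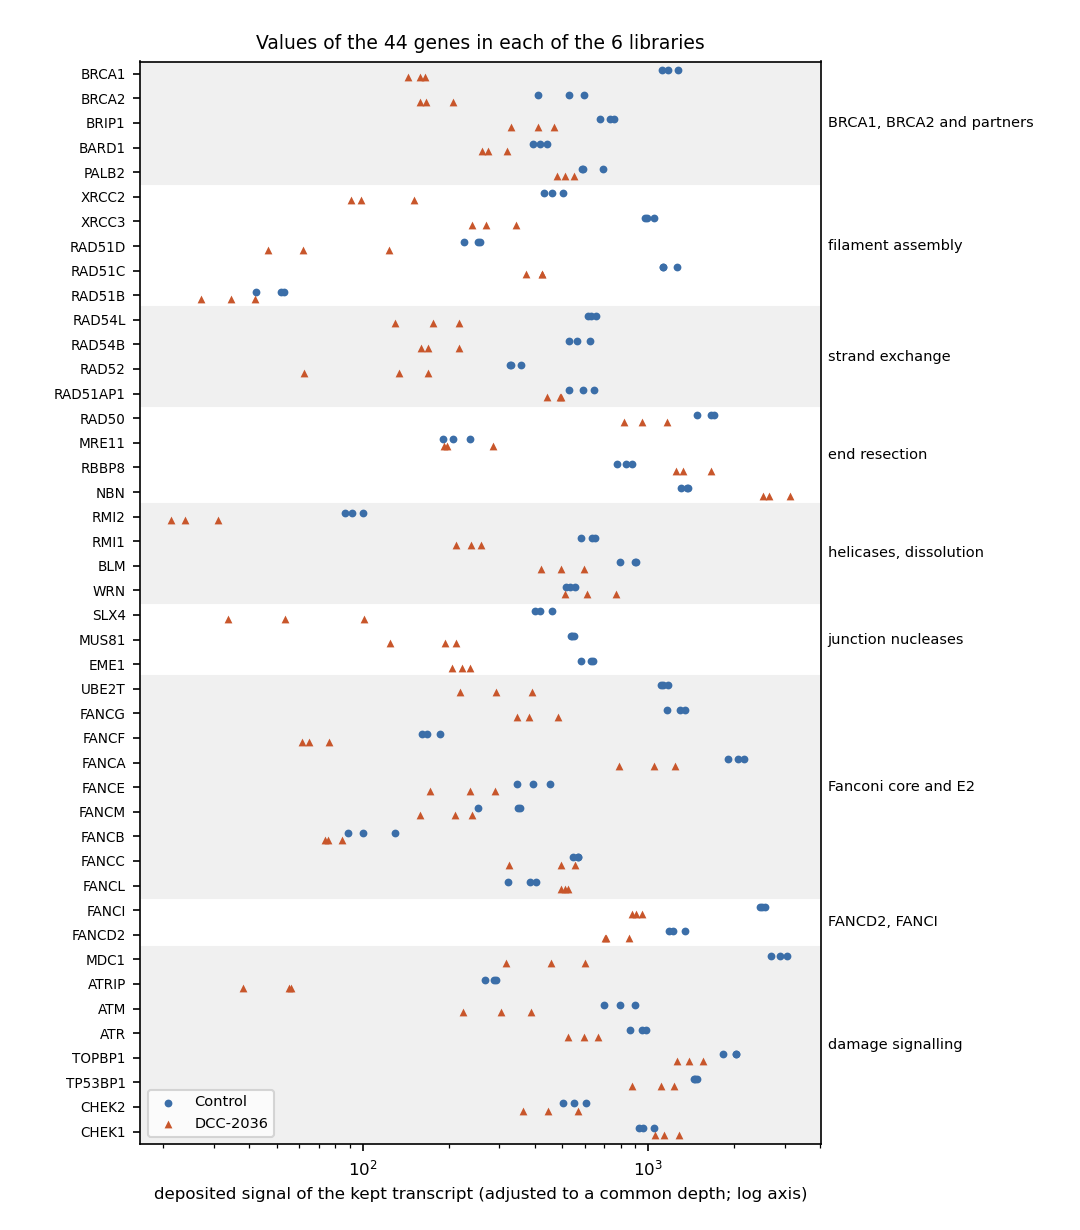
Signal of each of the 44 genes (y axis, grouped by role) in the 3 Control libraries (circles) and the 3 DCC-2036 libraries (triangles), on a log axis. BRCA1 lies between 1114 and 1271 in Control and between 144.5 and 164.9 with DCC-2036, whereas the values of MRE11, WRN, FANCC and CHEK2 overlap between the groups.

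So many of the genes were lower together that the promoters of 6 of them are shown, to set what lies before their start sites beside their values. BRCA1, UBE2T, XRCC2 and FANCD2 fell by different amounts, FANCA had transcripts that differed, and RBBP8 rose. The sequences are from RefSeq on GRCh38.p14 and run from 250 bases before the start of the gene to 50 bases after it. Those on the reverse strand are BRCA1 at chr17:43125315-43125614, UBE2T at chr1:202341887-202342186, XRCC2 at chr7:152676092-152676391 and FANCA at chr16:89816598-89816897, and those on the forward strand are FANCD2 at chr3:10026187-10026486 and RBBP8 at chr18:22933078-22933377. Capitals mark each match, on either strand, to an E2F-type motif (TTTCCCGC, TTTCGCGC, TTTGGCGC or TTTGCCGC), to the cell cycle motif TTTGAA, to CCAAT or to the GC box GGGCGG.
BRCA1: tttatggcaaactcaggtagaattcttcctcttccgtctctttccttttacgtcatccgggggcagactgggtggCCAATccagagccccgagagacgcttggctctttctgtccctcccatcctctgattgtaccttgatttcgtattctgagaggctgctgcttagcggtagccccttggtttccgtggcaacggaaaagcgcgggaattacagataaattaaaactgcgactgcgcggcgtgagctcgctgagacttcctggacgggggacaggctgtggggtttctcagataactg
UBE2T: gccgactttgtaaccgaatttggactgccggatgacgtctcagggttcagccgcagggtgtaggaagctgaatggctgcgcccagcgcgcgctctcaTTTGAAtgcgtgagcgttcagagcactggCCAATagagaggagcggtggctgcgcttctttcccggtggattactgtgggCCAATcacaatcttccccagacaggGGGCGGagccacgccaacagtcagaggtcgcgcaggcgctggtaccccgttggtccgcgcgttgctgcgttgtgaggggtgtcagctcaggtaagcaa
XRCC2: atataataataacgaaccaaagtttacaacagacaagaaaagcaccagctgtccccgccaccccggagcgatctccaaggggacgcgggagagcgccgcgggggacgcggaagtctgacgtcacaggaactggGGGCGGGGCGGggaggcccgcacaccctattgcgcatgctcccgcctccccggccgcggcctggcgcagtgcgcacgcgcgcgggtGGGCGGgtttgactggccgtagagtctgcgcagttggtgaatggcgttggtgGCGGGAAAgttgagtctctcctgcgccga
FANCD2: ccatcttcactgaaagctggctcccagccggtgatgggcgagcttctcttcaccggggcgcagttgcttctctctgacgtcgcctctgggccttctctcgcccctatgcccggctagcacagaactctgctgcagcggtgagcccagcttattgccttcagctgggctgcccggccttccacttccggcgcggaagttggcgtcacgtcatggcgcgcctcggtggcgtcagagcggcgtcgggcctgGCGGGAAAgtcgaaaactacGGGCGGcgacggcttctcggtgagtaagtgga
FANCA: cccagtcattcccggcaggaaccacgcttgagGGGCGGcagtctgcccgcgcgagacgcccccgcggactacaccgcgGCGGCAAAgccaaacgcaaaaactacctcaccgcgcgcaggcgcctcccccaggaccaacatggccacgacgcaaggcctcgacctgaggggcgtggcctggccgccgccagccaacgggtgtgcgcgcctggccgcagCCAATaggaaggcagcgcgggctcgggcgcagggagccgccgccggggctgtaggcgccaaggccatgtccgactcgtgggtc
RBBP8: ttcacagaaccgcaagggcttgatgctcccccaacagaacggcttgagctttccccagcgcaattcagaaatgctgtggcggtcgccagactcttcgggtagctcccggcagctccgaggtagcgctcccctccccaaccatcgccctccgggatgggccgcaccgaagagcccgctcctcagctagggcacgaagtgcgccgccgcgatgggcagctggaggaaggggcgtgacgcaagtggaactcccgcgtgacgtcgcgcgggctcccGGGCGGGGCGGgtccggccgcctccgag

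The BRCA1 promoter held 1 CCAAT and none of the other motifs. UBE2T held 2 CCAAT, 1 TTTGAA and 1 GC box. XRCC2 and FANCD2 each held 1 E2F-type motif, with 3 GC boxes and 1 GC box. FANCA held 1 E2F-type motif, 1 CCAAT and 1 GC box, while RBBP8 held 2 GC boxes alone. A promoter of the same length was found for 39 of the 44 genes, and none for FANCI, NBN, RAD54B, WRN and RMI2. Its start site is not always that of the kept transcript: it lay 17469 bases from it in TP53BP1, 3762 in RAD51B, 1088 in CHEK1, 608 in MDC1, 235 in ATM and 119 in BRCA1, and under 100 in the others. The E2F-type motifs were in 6 of these 39 promoters, or 15.4%, and in 3.31% of all 35116 promoters. The GC box was in 74.4% of the 39 and in 45.0% of all, CCAAT in 48.7% and 34.6%, and TTTGAA in 12.8% and 15.2%. E2F-type motifs and GC boxes overlapped in 0 of the 39 and in 0.424% of all promoters. The 35116 are all promoters of this length, whether or not their genes were tested here. Each of the 39 belongs to a tested gene and is its promoter nearest to the kept transcript. The sets are therefore unlike, and the differences between their shares were not tested. Among the 25 genes with a promoter that fell, 4 held an E2F-type motif and 18 a GC box, against 2 and 10 of the 13 that were not called. The matches describe letters and not sites in use, and a missing match says only that these letters are absent from this window.

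BRCA1, the tumour suppressor that acts at resection and strand invasion, had the lowest log2 fold change of the 44 genes. This rank depends on the processing, since in other settings SLX4 reached -3.29, while BRCA1 went no lower than -3.12. The signal of BRCA1 was 1271, 1168 and 1114 in Control and 164.9, 158.0 and 144.5 with DCC-2036. All 3 treated values were far below all Control values, at 13.2% of the Control mean, and the log2 fold change was -2.92 (standard error, SE, 0.11, BH-adjusted p = 0.000178, limma). By p-value BRCA1 ranked 3 among the 12725 genes tested, and by log2 fold change it ranked 47, counted from the lowest.

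BRCA2, which readies single-stranded DNA for pairing, had 597.3, 526.0 and 410.1 in Control and 206.3, 166.8 and 158.7 with DCC-2036. The groups were well apart, although Control itself varied. The log2 fold change was -1.52 (SE 0.18, BH-adjusted p = 0.000912, limma). BARD1, the partner of BRCA1 in its ubiquitin ligase, went from 418.4, 440.0 and 393.8 to 320.3, 275.0 and 260.7, a smaller change of -0.55 on the log2 scale (adjusted p = 0.00745, limma). BRIP1, a helicase that binds BRCA1, went from 732.5, 756.1 and 677.3 to 411.7, 467.3 and 331.4, a log2 change of -0.85 (adjusted p = 0.00345, limma). Both therefore fell without overlap, but by far less than BRCA1 itself. PALB2, which bridges BRCA1 and BRCA2, had 694.1, 589.0 and 583.4 in Control and 549.6, 477.4 and 511.3 with DCC-2036. Its values did not overlap either, but the log2 difference of -0.28 did not pass (95% interval -0.56 to 0.01, adjusted p = 0.0812, limma). With libraries scaled to equal totals the difference of PALB2 was -0.47 and did not pass either (0.0234). BARD1 was not called without any 1 of the Control libraries or without DCC-2036 replicate 2 or 3 (adjusted p from 0.0115 to 0.037), nor with no filter on low values (0.0168) or with a replicate block (0.0203). BRIP1 was not called without any 1 of the Control libraries (0.0135 to 0.0181).

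XRCC2, XRCC3, RAD51B, RAD51C and RAD51D form complexes that help protein filaments assemble on single strands, and 4 of the 5 fell. XRCC2 had 458.8, 503.3 and 430.6 in Control and 151.2, 91.2 and 98.9 with DCC-2036. No DCC-2036 value came near the Control range, and the log2 fold change was -2.05 (SE 0.20, BH-adjusted p = 0.000566, limma). XRCC3, RAD51D and RAD51C had log2 fold changes of -1.83, -1.77 and -1.52, with adjusted p-values of 0.000324, 0.00482 and 0.000257 (limma). RAD51D was not called without any 1 of the Control libraries or without DCC-2036 replicate 2 (0.0181 to 0.0207), nor with no filter (0.0116) or with the block (0.0143). RAD51B lay between 27.0 and 52.8 in the 6 libraries, and its log2 difference of -0.50 did not pass (adjusted p = 0.0492, limma), while with libraries scaled to equal totals it was -0.70 and called (0.00912), so that all 5 fell there. In the annotation, 76.7% of the exon bases of XRCC3 overlap exons of KLC1 on the other strand. KLC1 itself had a log2 fold change of 0.82 (adjusted p = 0.0018, limma), and since no strand setting is given for the counting, the values of XRCC3 are uncertain.

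Of the genes for strand exchange, the motor protein gene RAD54L had 630.0, 616.3 and 653.5 in Control and 217.6, 176.4 and 129.8 with DCC-2036. The highest treated value was far under the lowest Control value, and the log2 fold change was -1.88 (SE 0.19, BH-adjusted p = 0.00061, limma). RAD54B and RAD52, which anneals single strands, had log2 fold changes of -1.65 and -1.59 (adjusted p = 0.000441 and 0.00856, limma). RAD52 was not called without any 1 of the Control libraries or without DCC-2036 replicate 2 (0.0205 to 0.031), nor with no filter (0.0187) or with the block (0.0149), and the mean over the transcripts of RAD54B gave it a log2 fold change of -0.89. For RAD51AP1, which stimulates strand pairing, the difference of -0.30 did not pass (adjusted p = 0.0612, limma). With libraries scaled to equal totals it was -0.50 and did not pass either (0.0146).

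The 2 genes that rose both serve end resection. NBN, the subunit of the MRE11 complex that recruits ATM, had 1368, 1372 and 1304 in Control and 2526, 2654 and 3129 with DCC-2036. It was the gene with the highest fold change of the 44, at 205.4% of the Control mean and a log2 fold change of 1.03 (SE 0.12, BH-adjusted p = 0.000798, limma). RBBP8, which encodes the resection factor CtIP, had 876.4, 837.7 and 774.8 in Control and 1245, 1318 and 1650 with DCC-2036. Every DCC-2036 value was again above every Control value, and the log2 fold change was 0.75 (SE 0.14, BH-adjusted p = 0.00419, limma). It was not called without Control replicate 1, 2 or 3 or without DCC-2036 replicate 2 (adjusted p from 0.0154 to 0.021), nor with no filter on low values (0.0104) or with a replicate block (0.019). RAD50, the coiled-coil subunit of the same complex as NBN, went from 1657, 1704 and 1483 to 1166, 951.4 and 819.2, a log2 fold change of -0.73 (adjusted p = 0.00681, limma). Without the same 4 libraries, each left out in turn, RAD50 was not called either (0.0193 to 0.0307), nor with no filter (0.0155) or with the block (0.0126). The nuclease subunit MRE11 had overlapping values, 238.0, 206.3 and 190.4 against 197.1, 192.9 and 285.2. Its log2 difference of 0.07 was -0.13 with libraries scaled to equal totals, -0.002 without Control replicate 3 and -0.11 without DCC-2036 replicate 3. The 3 subunits of this complex were thus listed as higher, lower and not called.

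Of the 4 helicases and partners that take joined molecules apart, 3 fell. RMI2, a small subunit of the BLM dissolution complex, had 99.7, 91.3 and 86.4 in Control and 23.9, 31.2 and 21.4 with DCC-2036. Its groups were apart, with a log2 fold change of -1.83 (SE 0.16, BH-adjusted p = 0.000391, limma), and its partner RMI1 had -1.39 (adjusted p = 0.000366, limma). BLM, the helicase of this complex, went from 908.3, 896.6 and 792.3 to 594.1, 495.7 and 421.6, a log2 change of -0.79 (adjusted p = 0.00482, limma). BLM was not called without any 1 of the Control libraries or without DCC-2036 replicate 2 (0.0149 to 0.023), nor with no filter on low values (0.0116). WRN, the other RecQ helicase of the list, had 553.9, 530.3 and 515.3 against 510.4, 611.5 and 773.1, which overlapped, and its log2 difference of 0.22 was 0.37 without DCC-2036 replicate 1, 0.07 without DCC-2036 replicate 3 and 0.03 with libraries scaled to equal totals.

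All 3 genes for junction nucleases fell. SLX4, the scaffold on which junction nucleases assemble, had 401.4, 458.5 and 416.0 in Control and 101.3, 53.2 and 33.8 with DCC-2036. The DCC-2036 libraries differed 3-fold among themselves and were still all far below Control. The log2 fold change was -2.88, with the largest SE of the 44 genes, 0.37 (adjusted p = 0.00121, limma). MUS81 and EME1, the subunits of a junction nuclease, had log2 fold changes of -1.65 and -1.47 (adjusted p = 0.0011 and 0.00026, limma). Parts of their exons, 13.9% and 16.4%, overlap CFL1 and LRRC59 on the other strand. These neighbours had signals between 16885 and 29549 for CFL1 and between 7889 and 11914 for LRRC59, so the values of MUS81 and EME1 are uncertain.

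Of the 9 genes of the Fanconi core complex and its ubiquitin-conjugating enzyme, 4 fell (44.4%, against 22.7% of all genes tested) and 5 did not pass. UBE2T, which encodes that enzyme, had 1105, 1125 and 1171 in Control and 390.7, 293.3 and 219.1 with DCC-2036. The DCC-2036 range stayed well under Control, and the log2 fold change was -1.95 (SE 0.21, BH-adjusted p = 0.000699, limma). FANCG, FANCF and FANCA had log2 fold changes of -1.66, -1.34 and -1.02 (adjusted p = 0.000447, 0.00045 and 0.00357, limma). FANCA was not called without any 1 of the Control libraries or without DCC-2036 replicate 2 (0.0138 to 0.0177), and the mean over its transcripts gave -0.39 (0.0498). FANCE, FANCM, FANCB and FANCC had log2 differences of -0.79, -0.65, -0.43 and -0.33 that did not pass. FANCE was called without DCC-2036 replicate 1 (0.00632) and with a limma trend (0.00826), but had -0.48 with the trend for GC content and length taken out (0.056). FANCB had -0.28 without Control replicate 1, and FANCC had -0.10 without DCC-2036 replicate 3. With the trend for GC content and length taken out, FANCC had -0.11. It had -0.52 with libraries scaled to equal totals and -0.48 without DCC-2036 replicate 1, and was not called in any of these settings. FANCL, the ubiquitin ligase subunit, had 405.4, 386.4 and 321.9 in Control and 510.2, 493.6 and 524.1 with DCC-2036. These groups did not overlap, and the log2 difference of 0.46 did not pass (adjusted p = 0.0156, limma). It was 0.26 with libraries scaled to equal totals (0.119), and 0.48 and called with the trend for GC content and length taken out (0.0092).

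FANCD2 and FANCI, the pair that receives the ubiquitin, both fell. FANCI had 2500.1, 2559 and 2460.1 in Control and 907.4, 950.1 and 879.7 with DCC-2036. Its replicates were close in both groups, 36.4% of the Control mean was left, and the log2 fold change of -1.46 had the smallest SE of the 44 genes, 0.09 (adjusted p = 0.00021, limma). FANCD2 had 1345, 1220 and 1183 in Control and 857.5, 711.2 and 703.9 with DCC-2036. Its groups did not overlap, and it fell to 60.6% of the Control mean, a log2 fold change of -0.73 (SE 0.12, BH-adjusted p = 0.00305, limma). FANCD2 was not called without any 1 of the Control libraries or without DCC-2036 replicate 2 (0.0129 to 0.0167).

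Among the genes that signal damage, MDC1, the adaptor that holds ATM at breaks, had 2896, 2685 and 3058 in Control and 599.1, 455.6 and 317.7 with DCC-2036. Per kilobase it was the highest of the 8 signalling genes in Control, with 380.1, and its signal went to 15.9% of the Control mean, with a log2 fold change of -2.70 (SE 0.23, BH-adjusted p = 0.000375, limma). ATRIP, the partner through which ATR finds single-stranded DNA, had 292.5, 288.0 and 267.7 in Control and 55.9, 55.1 and 38.01 with DCC-2036. It too was far below Control in every treated library, with a log2 fold change of -2.51 (SE 0.17, BH-adjusted p = 0.000228, limma). In the annotation 27.9% of the exon bases of ATRIP overlap TREX1 on the same strand, which had a log2 difference of -0.25 that did not pass.

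Both kinases fell. ATM had 896.2, 796.4 and 701.1 in Control and 386.6, 304.1 and 224.9 with DCC-2036 (log2 fold change -1.41, SE 0.21, adjusted p = 0.00212, limma). ATR had 980.8, 949.2 and 863.2 in Control and 666.7, 594.2 and 523.5 with DCC-2036 (log2 fold change -0.65, SE 0.13, adjusted p = 0.00511, limma). In each the highest DCC-2036 value stayed below the lowest Control value. ATM was not called without Control replicate 1 or 2 or without DCC-2036 replicate 2, where its adjusted p was 0.0101 to 0.0115. ATR was not called without any 1 of the Control libraries or without DCC-2036 replicate 2 (0.0158 to 0.0252), nor with no filter on low values (0.0122) or with a replicate block (0.0114). The kinases that they activate did not pass. CHEK1 had 928.9, 1042 and 956.2 in Control and 1058, 1132 and 1285 with DCC-2036, a log2 difference of 0.24 without overlap (95% interval -0.035 to 0.52, adjusted p = 0.109, limma), which was 0.05 with libraries scaled to equal totals (0.696). CHEK2 had 547.2, 602.6 and 500.5 in Control and 566.0, 443.8 and 363.1 with DCC-2036, which overlapped (log2 difference -0.29, 95% interval -0.72 to 0.15, adjusted p = 0.207, limma), and the difference was -0.45 without DCC-2036 replicate 1 and -0.13 without DCC-2036 replicate 3. TOPBP1 and TP53BP1 had log2 differences of -0.49 and -0.46 that did not pass (adjusted p = 0.0122 and 0.0302, limma), of which TOPBP1 was called in 5 other settings. These were libraries scaled to equal totals, a signal of at least 10 in all 6 libraries, a limma trend, the trend for GC content and length taken out, and DCC-2036 replicate 1 left out (0.00389 to 0.00981).

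**Figure D2:**
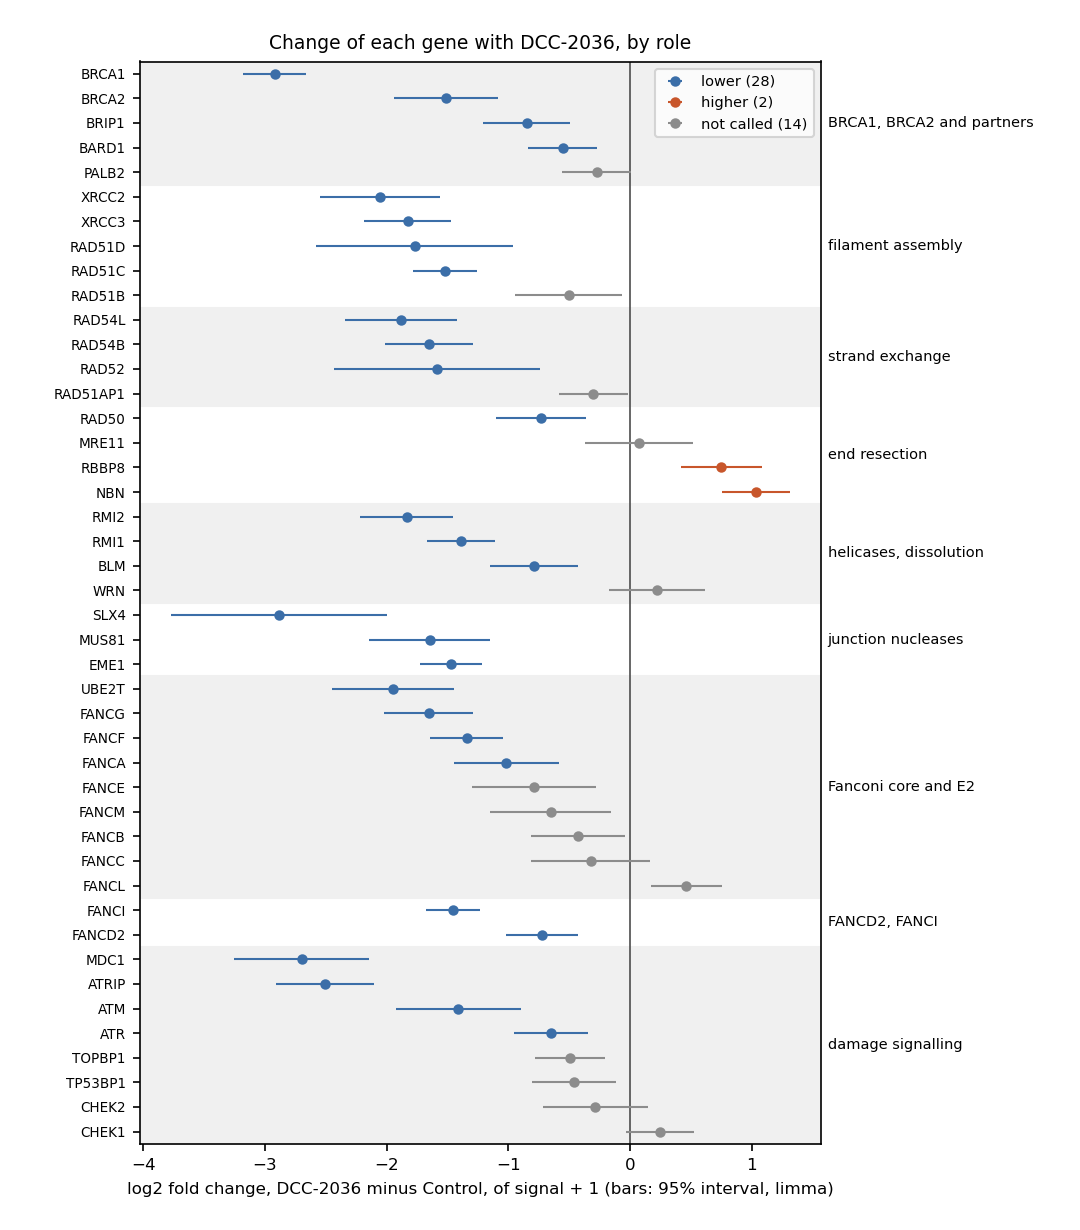
Log2 fold change of signal + 1 for each gene (y axis, grouped by role), DCC-2036 minus Control, with the 95% interval from limma. The 28 genes that fell reach from -2.92 in BRCA1 to -0.55 in BARD1, and the 2 that rose are NBN and RBBP8, both in the group for end resection.

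By role, the median log2 fold change was -1.77 over the 5 genes for filament assembly, -1.65 over the junction nucleases and -1.62 over the genes for strand exchange, and 0.41 over the genes for end resection. It was -1.09 over the helicases and partners and over the pair of FANCD2 and FANCI, -0.85 over BRCA1, BRCA2 and partners, -0.79 over the Fanconi core and -0.57 over the 8 damage signalling genes. The median for end resection lies between MRE11 at 0.07 and RBBP8 at 0.75. It depends on the scaling, since MRE11 was -0.13 with libraries scaled to equal totals. The differences between these small groups were not tested. In the annotation, at least 10% of the exon bases of 12 of the 44 genes overlap another annotated gene or pseudogene. Those not yet named include RAD50 (79.7%), TP53BP1 (28.7%), RAD54L (25.1%), FANCL (18.7%), ATR (16.4%) and FANCF (11.3%), and the values of all 12 are uncertain to that degree.

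The DCC-2036 libraries varied more than the Control libraries. The median SD of log2(signal + 1) over the 44 genes was 0.10 in Control and 0.25 with DCC-2036, and over all genes tested it was 0.10 and 0.23. DCC-2036 replicate 3 was farthest from the Control mean in 26 of the 30 called repair genes, and in 64.5% of the 5329 genes called in all. Without this library 27 genes fell and 2 rose, and the median over the 44 genes was -0.78.

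Levels can be set side by side only per length. Per kilobase of the annotated transcript, UBE2T was highest in Control, with a mean signal of 1248, followed by FANCI with 528.4, FANCG with 480.8, RAD51C with 451.4 and FANCA with 444.0. With DCC-2036 the order was led by NBN with 612.4 per kilobase and RBBP8 with 427.1, and BRCA1 went from 164.4 to 21.6 per kilobase. Across the 44 genes, the log2 fold change had a Spearman rho of -0.49 (Pearson r -0.50 on log10) with the GC content of the kept transcript and of 0.44 (Pearson r 0.40 on log10) with the span of the gene, so that genes of higher GC content and shorter span tended to be lower. Over the 12296 tested genes with annotation these were -0.14 and 0.09. Genes are not independent replicates, all share the same 6 libraries, and no test is attached. With the trend for GC content and length taken out of each library, 29 of the 44 genes fell and 3 rose.

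Some of the genes had another transcript that ends early, inside the gene, and these were chosen for a closer look after the values had been seen. FANCA is kept here as a transcript of 43 exons, and the table also lists NM_001018112.1, with 11 exons, whose end lies 59971 bases before that of the kept transcript. The signal of this short transcript was 442.9, 458.4 and 420.5 in Control and 1465, 1486 and 1296 with DCC-2036. The kept transcript had 2165, 2059 and 1904 in Control and 1243, 1043 and 790.1 with DCC-2036. Per kilobase the short form was lower than the long one in every Control library and higher in every DCC-2036 library. In the mean per kilobase it went from 268.5 to 862.7, and the long form from 444.0 to 222.9. The log2 ratio of the short to the long form changed by 2.70 (SE 0.13, BH-adjusted p = 0.0055, limma over all such ratios). It was not called without any 1 of the Control libraries or without DCC-2036 replicate 2 or 3 (0.0105 to 0.0436), nor with a replicate block (0.0499). The FANCA gene also shares 23.6% of its exon bases with ZNF276 on the other strand, which fell by 1.74 on the log2 scale (adjusted p = 0.000228, limma). Reads that lie in exons of both forms cannot be assigned to either from these values.

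RAD54B was similar in size of change. Its kept transcript of 15 exons had 561.3, 622.8 and 527.2 in Control and 217.6, 169.0 and 159.9 with DCC-2036, while NM_001205262.2, with 4 exons and an end 59200 bases earlier, had 128.8, 138.9 and 116.8 in Control and 268.7, 338.6 and 329.3 with DCC-2036. The long form fell and the short form rose when all transcripts were tested separately (adjusted p = 0.000413 and 0.00062, limma). The change of the ratio, 2.93, just missed the limit (SE 0.22, BH-adjusted p = 0.0107, limma), and passed without DCC-2036 replicate 1 (0.000471), with a limma trend (0.00759) and with a signal of at least 10 in all 6 libraries (0.00953). Another transcript of RAD54B, NM_001205263.1, which starts 67442 bases after the kept one and ends 210 bases before it, fell as well (adjusted p = 0.000504, limma), and the change of its ratio, -0.21, did not pass. FSBP, a separate gene that lies within RAD54B on the same strand and overlaps 59.1% of its exon bases, had 72.4, 76.6 and 57.8 in Control and 223.1, 284.5 and 271.9 with DCC-2036 (adjusted p = 0.000328, limma), so the short form of RAD54B and FSBP cannot be told apart where they overlap.

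RAD51C and FANCM had smaller shifts. The RAD51C transcript NM_002876.3, with 2 of the 9 exons, had 320.5, 358.3 and 353.5 in Control and 181.6, 244.4 and 242.5 with DCC-2036, a smaller fall than that of the kept form, and the change of the ratio, 0.89, did not pass (adjusted p = 0.0614, limma). The FANCM transcript NM_001308134.1, with 11 of 23 exons, had 100.6, 114.5 and 74.3 in Control and 111.0, 83.7 and 133.1 with DCC-2036, and its change of the ratio was 0.83 (adjusted p = 0.0398, limma). In both genes the early-ending form thus took a larger share of the signal with DCC-2036 in the mean, but neither change passed.

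**Figure D3:**
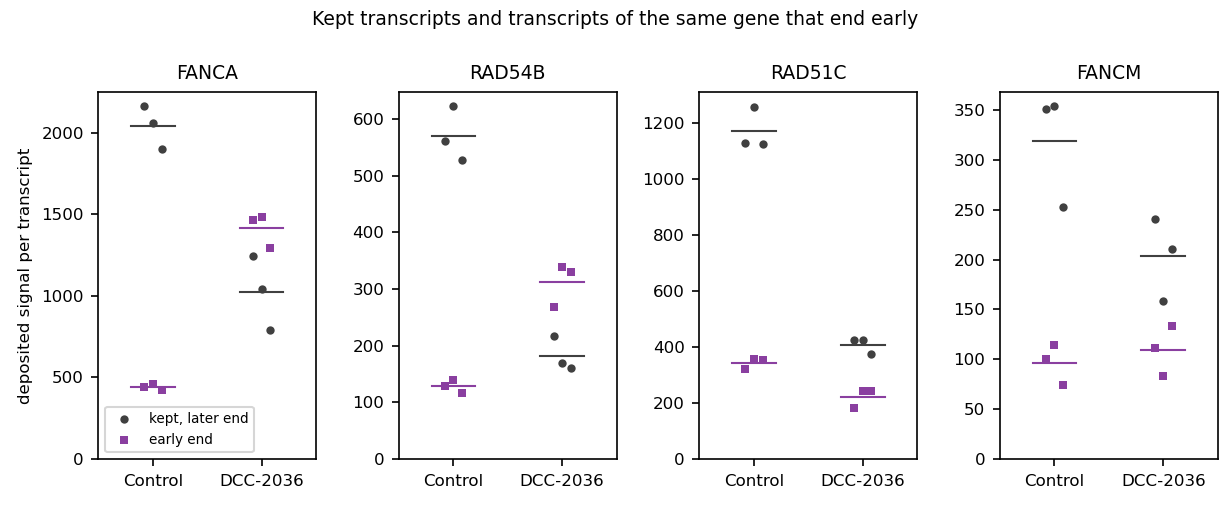
Signal of the kept transcript (circles) and of a transcript with an early end (squares) of FANCA, RAD54B, RAD51C and FANCM in the 3 Control and 3 DCC-2036 libraries, with the group mean as a line. In FANCA and RAD54B the early-ending transcript lies below the kept one in Control and above it with DCC-2036, also per kilobase.

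Over the whole table, 19352 ratios of another transcript to the kept transcript of its gene were tested, and 0.398% changed in either direction at an adjusted p-value below 0.01 (limma). Of 67 such ratios in 27 of the repair genes, 1 changed, that of FANCA, and 14 had an unadjusted p under 0.05. Unadjusted p-values this low were also common over all genes, so the 14 are not read as a trait of the repair genes. Outside the early-ending and late-starting classes described below, 5 of 54 ratios in the repair genes rose and 2 fell at this limit. Over all genes, 1476 of 15403 such ratios rose and 1454 fell. No ratio passed without any 1 of the Control libraries or without DCC-2036 replicate 2 or 3, and 2 passed without DCC-2036 replicate 1. With a replicate block 0 passed in limma. Both ends were known for 17192 ratios. Among the 625 transcripts, in 443 genes, that end at least 10000 bases before the kept transcript and start within that distance of it, 83.8% had a higher ratio with DCC-2036, and the median change was 0.34. Of these ratios 18 rose and 0 fell in limma, beside 351 and 24 at an unadjusted p under 0.05. Among the 1164 that start at least 10000 bases after the kept transcript, 35.3% had a higher ratio and the median was -0.01. At an unadjusted p under 0.05 (limma), 64 of these rose and 205 fell. Among the 15403 other transcripts, 48.6% had a higher ratio and the median was -0.001. Of these others 1476 rose and 1454 fell at an unadjusted p under 0.05. The repair genes held 9 of the 625, and 7 of these 9 had a higher ratio, 1 of them by under 0.01, with a median of 0.55. The 2 with a lower ratio were transcripts of RAD51B. At an unadjusted p under 0.05 (limma), 5 of the 9 rose and 0 fell, beside the 351 and 24 of the 625. Transcripts of one gene often carried nearly the same values, so these counts are not of independent measurements. With a limit of 1000 bases in place of 10000, 61.4% of 2381 such transcripts had a higher ratio, but the median change was 0.01, with 20 up and 6 down at the limit. In the repair genes 16 of 20 had a higher ratio, with a median of 0.05.

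**Figure D4:**
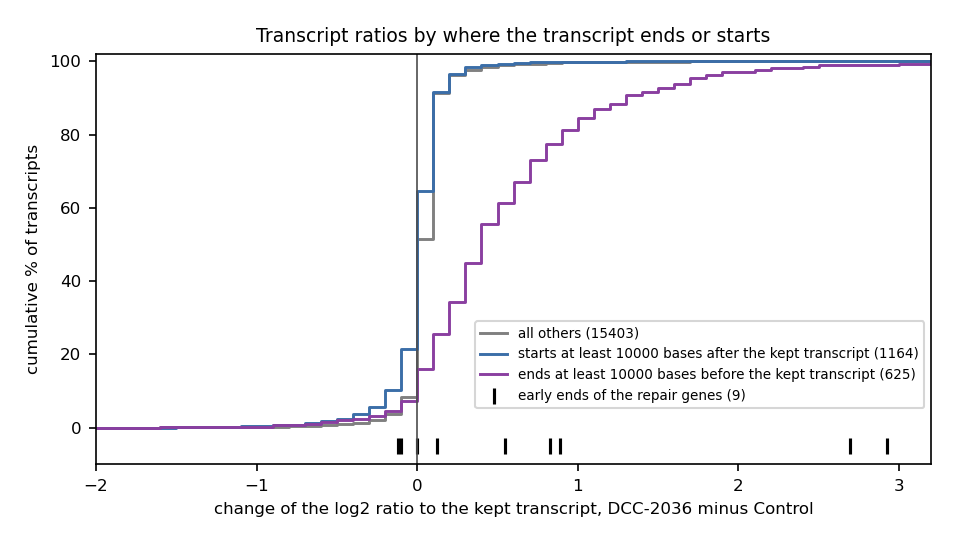
Cumulative percent of transcripts (y axis) by the change of their log2 ratio to the kept transcript of the same gene (x axis, DCC-2036 minus Control), for transcripts that end early, that start late and all others. The early-ending class lies to the right, with a median of 0.34, and ticks mark the 9 early-ending transcripts of the repair genes, FANCA at 2.70 and RAD54B at 2.93 among them.

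Other genes of the same pathways were listed as well. Of 23 tested genes for recombination beyond the 44, 15 fell (65.2%, against 22.7% of all genes tested) and 0 rose in limma (against 19.2%). The median log2 fold change was -1.16, and 1 gene was higher at an unadjusted p under 0.05. The largest falls were those of the helicase gene RECQL5, from 587.7, 601.5 and 560.4 to 151.2, 95.5 and 94.3, a log2 fold change of -2.38, and of SWI5 and SFR1, which form an accessory complex for strand exchange, with -2.27 and -2.26 (adjusted p = 0.00034, 0.000456 and 0.000193, limma). Of 14 other genes for Fanconi and crosslink repair, 6 fell (42.9%, against 22.7% of all genes tested) and 1 rose (7.14%, against 19.2%). Their median was -0.69. ERCC4, a subunit of a crosslink nuclease, had a log2 fold change of -1.72, the core subunit FAAP100 -1.54 and the ubiquitin ligase gene RFWD3 -1.36 (adjusted p = 0.00434, 0.000445 and 0.00625, limma). REV3L, the catalytic subunit of a translesion polymerase, rose by 0.69 (adjusted p = 0.00443, limma).

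Of 23 other damage signalling genes, 10 fell (43.5%, against 22.7% of all genes tested) and 1 rose (4.35%, against 19.2%). Their median was -0.50. CDC25C, a phosphatase for mitotic entry, had a log2 fold change of -2.34, the ATR mediator CLSPN -1.36 and the histone gene H2AFX -1.002 (adjusted p = 0.0013, 0.0052 and 0.00499, limma). UIMC1, which brings BRCA1 to ubiquitin at breaks, rose by 0.87 (adjusted p = 0.00129, limma), from 514.3, 558.6 and 478.5 to 864.9, 967.5 and 1007. All 3 treated values were above Control, in the libraries in which BRCA1 was below it. Of the 12 genes for end joining, the pathway that rejoins ends without a copy, 4 fell (33.3%, against 22.7% of all genes tested) and 0 rose in limma, 2 were higher at an unadjusted p under 0.05, and the median of -0.10 was close to that of all genes tested. The polymerase genes POLL and POLM had log2 fold changes of -2.24 and -1.46 and the ligase gene LIG4 -1.28 (adjusted p = 0.000193, 0.00109 and 0.000699, limma), whereas XRCC5, XRCC6 and PRKDC, which encode the end-binding kinase complex, were not called.

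Genes of the cell cycle were lower in the same libraries. Of 32 genes of S phase, 20 fell (62.5%) and 0 rose in limma, with a median of -0.66. Of 24 genes of G2 and mitosis, 17 fell (70.8%) and 0 rose, with a median of -0.79. The shares over all genes tested were 22.7% that fell and 19.2% that rose. At an unadjusted p under 0.05, 2 genes of each list were higher. The S phase list summed to between 97914 and 104161 in the Control libraries and to 72944, 67620.0 and 62395 with DCC-2036, and its most abundant gene was MCM7. The G2 and mitosis list summed to between 99663 and 101927 in Control and between 59956 and 62974 with DCC-2036, with MKI67 as its most abundant gene. GINS1, E2F8 and GINS4 had log2 fold changes of -2.94, -2.86 and -2.37 (adjusted p = 0.00283, 0.000338 and 0.000178, limma), and AURKB, CCNB1 and TOP2A of -2.61, -1.75 and -1.48 (adjusted p = 0.000178, 0.000193 and 0.000236, limma). MCM2 and PCNA, also of S phase, were not called, with log2 differences of 0.07 and -0.16. Whether the cell cycle has a part in the values of the repair genes was not tested.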

How the data were processed

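RNA-seq values of 3 Control and 3 DCC-2036 libraries were taken as deposited, with groups from the sample titles. The authors made these signal values per RefSeq transcript and adjusted them to a common depth. The aligner, counter, build and strand setting are not given in the sources used here, and the study cites an earlier report for its RNA-seq methods. Whole reads cannot be recovered, so the depth is unknown. The authors' columns of log2 fold change, p and q were not used, and the table held 0 columns of other samples.

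Each symbol was represented by its transcript of highest mean. Genes that reached a value of 10 in 3 or more libraries were tested as log2(value + 1) in R 4.3.3 with limma 3.58.1 (lmFit, eBayes, two-sided), with Benjamini-Hochberg adjustment over all genes tested and calls at an adjusted p below 0.01. Tables and figures were made with numpy 2.4.6, matplotlib 3.10.9, pandas 2.3.3 and scipy 1.17.1 under Python 3.11.15. The pipeline was tested on simulated data. Lengths, GC content and transcript ends came from GENCODE 29, which held 12296 of the tested genes (96.63%), and promoters from RefSeq.

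Values in every library were given for the 8 lowest and the 8 highest log2 fold changes among called genes and for BRCA1, BRCA2, PALB2, FANCD2, FANCI, ATM, ATR, CHEK1, CHEK2 and RBBP8. From each other list up to 3 called genes per direction were named by size of change. A further gene of that rule is not reported. Other genes with values in each library were chosen after their values were seen. Alternatives were other scalings (median of ratios, upper quartile, equal totals, GC content and length), filters, a pseudocount of 0.1, a limma trend, a replicate block, the mean over transcripts, other limits for calls and leaving out each library. Added after the values were seen were a fit of all transcripts and the ratios and ends of transcripts. The members and lists were chosen with earlier results of these data known.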

Additional observations from a re-analysis of the deposited data

How the results depend on the processing

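All 30 called genes kept their direction in each of 17 alternative settings, and 19 kept their call in each. Genes that rose numbered 1, not 2, with no filter on low values, with a replicate block and at a log2 fold change of at least 1 in size, and 1 to 2 with 1 library left out. Genes that fell numbered 18 to 30 with 1 library left out: 18 without Control replicate 1 or 2, 19 without Control replicate 3 or DCC-2036 replicate 2, 27 without DCC-2036 replicate 3 and 30 without DCC-2036 replicate 1. Over all genes tested 2887 fell, and in the same order 1571, 1502, 1534, 1650, 3198 and 3444. With no filter on low values 22 of the 44 genes fell, all among the 28. The log2 difference of MRE11, 0.07, reversed to -0.126 with equal totals, to -0.002 without Control replicate 3 and to -0.111 without DCC-2036 replicate 3, and reached 0.17 without DCC-2036 replicate 2. The number of transcripts with a changed ratio, 1, was 2 with a value of at least 10 in all 6 libraries, 2 with a limma trend, 0 with a replicate block, and 0 to 2 with 1 library left out, while 14 had an unadjusted p under 0.05 in limma without these changes. Outside the early-ending and late-starting classes, 5 of 54 ratios in the repair genes rose and 2 fell at that unadjusted p. Over all genes, 1476 of the 15403 ratios outside these classes rose and 1454 fell. The cause was not tested in any of these settings.

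Replicate numbers did not pair the libraries (correlations across all genes tested of the deviations from the group means, by the same number, 0.081, -0.035 and -0.003), and with the block 1 gene rose and 23 fell, beside 1202 and 1909 of all genes tested. Of all genes called, 45.8% were higher (2442 against 2887 lower). With equal totals this was 32.7% (1669 against 3442) and the median of all genes tested moved from -0.09 to -0.29, with the 44 genes at -1.13. With the trend for GC content and length taken out it was 56% (3131 against 2463) with medians of 0.05 and -0.82. The depth behind each value is unknown, so no limit of detection is given.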
